A study of Mus musculus with 14 samples.

Results

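Immunoglobulin heavy chain V segments were taken as every gene entry whose symbol begins with Ighv, 183 of the 46959 entries in the count table. They were described in 14 RNA libraries: 12 cultured Eµ-Myc lymphoma lines and 2 lymphomas. By the labels, each line came from its own Eµ-MycTg/+ mouse, in which the heavy chain enhancer Eµ drives Myc in the B lineage. Per the labels the lines were malignant B cells of WT genotype, kept untreated for 24 hours in medium with added L-asparagine, and each line is named by its mouse number. Both lymphomas were lymph node tumours from WT C57BL/6 mice engrafted with cells of line 506. One host group received vehicle (0.9% NaCl) and the other ASNase (L-asparaginase, which cleaves asparagine), with dosing begun on day 7 after engraftment and carried on to endpoint. There was 1 library for each line and 1 for each treatment, and the hosts kept their own lymphocytes. Sources used here do not give the ages of the mice, the number of hosts behind a lymphoma library or the strain of the line donors.

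A B cell makes its heavy chain by joining 1 V segment to a D and a J segment, after which the joined exon is spliced to a constant region. The V promoter then lies near the Eµ enhancer, so a mature transcript carries the V segment that the cell rearranged, and cells of 1 clone share that segment. Normal B cell populations use many segments. V segments that were never joined can also be transcribed, as germline transcripts, in B cell progenitors. Family numbers, the first number in a name such as Ighv5-17, group segments by sequence.

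All 183 segments lie on chromosome 12 on the minus strand (GRCm38), between 113572927 and 116010093, over 2437 kb, and their coordinates equal those of GENCODE M21. The D and J segments lie before the low-coordinate end, called the D-proximal end here, from which positions are given. GENCODE classes 113 as V genes and 70 as pseudogenes, in 16 families. At least 1 count was seen for 106 segments in 1 or more libraries, and 77 had no count in any, of which 56 were pseudogenes. A count of at least 10 in any library, used here as detected, was reached by 47 segments, 3 of them pseudogenes. Among the lines the number was 34, and without line 504 it was 18.

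Library totals ran from 24597230 to 32614751 counts, so that 3 counts, the level a count of 0 allows, were 0.0896 to 0.124 CPM, the count scaled to a common library size. Intervals and this level cover counting error only, as the reads carried no molecular identifiers. The 2 lymphomas share an origin and are not independent. Lines 506, 549 and 688 stood apart in being alike. Over 500 variable genes without immunoglobulin genes, Spearman's rho was 0.883 for lines 506 and 688, 0.864 for 506 and 549 and 0.793 for 549 and 688, against a median of 0.352 over the 66 pairs of lines. These were also the closest 3 of 66 pairs by the squared difference of counts over its sampling variance. Their values were 24.0, 33.8 and 35.7 against a median of 187, where sampling alone gives about 1. Whether these 3 lines share an origin was not tested. Line 504 differed from the other lines in its Ighv pattern. Comparisons are therefore also given without line 504 and without lines 549 and 688.

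The sequences of the segments on which the results turn are shown first, because short reads can be assigned between segments only where these differ. They are the V regions (GENCODE M21 transcripts, GRCm38, minus strand, 5′ to 3′, without leader bases), and capitals mark bases that differ from the first segment of each set.
Ighv5-17, chr12:113859149-113859442: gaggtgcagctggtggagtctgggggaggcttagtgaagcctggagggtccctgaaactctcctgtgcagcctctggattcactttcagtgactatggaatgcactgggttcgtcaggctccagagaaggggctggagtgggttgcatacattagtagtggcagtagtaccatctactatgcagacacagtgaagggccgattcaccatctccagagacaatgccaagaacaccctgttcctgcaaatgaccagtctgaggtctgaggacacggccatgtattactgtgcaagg
Ighv5-2, chr12:113578504-113578799: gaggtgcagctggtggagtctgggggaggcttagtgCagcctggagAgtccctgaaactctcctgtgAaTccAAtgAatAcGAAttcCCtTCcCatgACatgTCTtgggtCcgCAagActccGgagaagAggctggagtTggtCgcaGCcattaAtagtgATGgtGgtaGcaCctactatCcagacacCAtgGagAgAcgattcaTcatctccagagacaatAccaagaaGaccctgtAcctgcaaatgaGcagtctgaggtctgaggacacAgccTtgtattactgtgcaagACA
Ighv5-4, chr12:113597446-113597741: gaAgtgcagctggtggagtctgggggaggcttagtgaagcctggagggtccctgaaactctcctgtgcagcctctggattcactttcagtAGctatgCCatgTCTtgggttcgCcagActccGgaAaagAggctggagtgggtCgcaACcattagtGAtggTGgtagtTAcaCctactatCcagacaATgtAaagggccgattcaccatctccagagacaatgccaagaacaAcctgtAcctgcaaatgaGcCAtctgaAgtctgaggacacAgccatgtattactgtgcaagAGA
Ighv5-17 led 3 lines and both lymphomas, Ighv5-2 was the partner detected with it, and Ighv5-4 is a closer relative with 0, 0 and 1 counts in lines 506, 549 and 688, 10 with vehicle and 2 with ASNase. Ighv5-2 was 82.3% identical to Ighv5-17, rank 12 of 15 relatives in family 5 with a V region. The longest run shared by both was 36 bases, and 0 of 220 stretches of 75 bases, the read length, were in both. Ighv5-4 was 88.1% identical, with a shared run of 87 bases and 13 shared stretches.

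Families 2 and 11 gave the opposite case, of near-identical neighbours.
Ighv2-2, chr12:113588267-113588559: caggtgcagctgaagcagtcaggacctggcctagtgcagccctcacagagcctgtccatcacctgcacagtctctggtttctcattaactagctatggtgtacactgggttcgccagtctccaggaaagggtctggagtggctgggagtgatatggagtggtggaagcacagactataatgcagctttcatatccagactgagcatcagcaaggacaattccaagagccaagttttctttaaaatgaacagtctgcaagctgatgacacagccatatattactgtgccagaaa
Ighv2-4, chr12:113653291-113653583: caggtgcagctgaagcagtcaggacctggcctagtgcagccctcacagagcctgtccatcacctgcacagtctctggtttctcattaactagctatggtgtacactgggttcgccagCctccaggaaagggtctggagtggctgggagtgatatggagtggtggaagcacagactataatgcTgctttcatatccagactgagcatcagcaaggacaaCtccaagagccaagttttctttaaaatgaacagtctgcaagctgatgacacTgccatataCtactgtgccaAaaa
Ighv11-2, chr12:114048241-114048536: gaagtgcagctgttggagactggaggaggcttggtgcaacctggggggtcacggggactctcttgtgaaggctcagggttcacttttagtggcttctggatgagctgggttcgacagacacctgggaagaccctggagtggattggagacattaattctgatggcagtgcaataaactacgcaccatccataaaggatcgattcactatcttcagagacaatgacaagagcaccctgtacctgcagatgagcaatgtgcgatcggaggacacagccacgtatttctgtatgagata
Ighv11-1, chr12:113981879-113982174: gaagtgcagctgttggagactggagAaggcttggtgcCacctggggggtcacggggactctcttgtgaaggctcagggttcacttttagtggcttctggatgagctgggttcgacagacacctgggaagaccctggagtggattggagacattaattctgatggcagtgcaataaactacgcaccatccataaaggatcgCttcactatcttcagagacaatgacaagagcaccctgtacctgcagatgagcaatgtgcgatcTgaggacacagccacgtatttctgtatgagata
Ighv2-4 was 98.0% identical to Ighv2-2 and shared 43 of 219 stretches of 75 bases with it. Ighv11-1 was 98.6% identical to Ighv11-2 and shared 88 of 222 stretches. Counts of Ighv2-4, Ighv2-5 (96.9% identical to Ighv2-2) and Ighv11-1 are therefore uncertain beside those of their partners, since how reads with several matches were counted is not given in the sources used here.

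Each line was led by 1 segment, and 11 of the 12 lines gave it most of their Ighv counts. The leading segment held 65.0% to 99.8% of the Ighv counts in these 11 lines, with a median of 97.0%. It held 21.6% in line 504. The 12 lines had 10 distinct leading segments from 6 families, and only Ighv5-17 led more than 1 line. The leader was the same in all 14 libraries when counts were divided by annotated length.

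Lines 115, 505, 524, 649 and 801 were close to a single segment. Line 115 had 8864 counts of Ighv13-2, which was 99.8% of its Ighv counts (exact binomial 95% interval 99.7 to 99.9). In line 505 Ighv1-22 had 14839 counts, and in line 524 Ighv5-12 had 13882, also 99.8% each. Ighv1-80 with 9321 counts made up 99.6% in line 649, and Ighv1-64 with 11027 counts made up 99.7% in line 801. Beyond the leader these 5 lines had 14 to 37 Ighv counts each. The next segment was in the leader's own family in 4 of them, as with the 30 counts of Ighv1-84 in line 649, the 20 of Ighv5-15 in line 524 and the 14 of Ighv1-53 in line 801.

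Lines 136, 309 and 517 had a clear leader and a second set. Line 517 was led by Ighv11-2 with 11864 counts (97.0%), followed by 250 of Ighv11-1 and 118 of Ighv5-6. In line 309 Ighv5-6 led with 11180 counts (95.9%), and Ighv2-2 had 373 (3.20%). Line 136 was led by Ighv2-2 with 5895 counts (81.2%, interval 80.3 to 82.1), and Ighv13-2, from another family, had 681 (9.38%). Its relatives Ighv2-4 and Ighv2-5 had 579 and 98 counts. Ighv13-2 and Ighv2-2 are 60.1% identical and share no stretch of 75 bases.

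**Figure D1:**
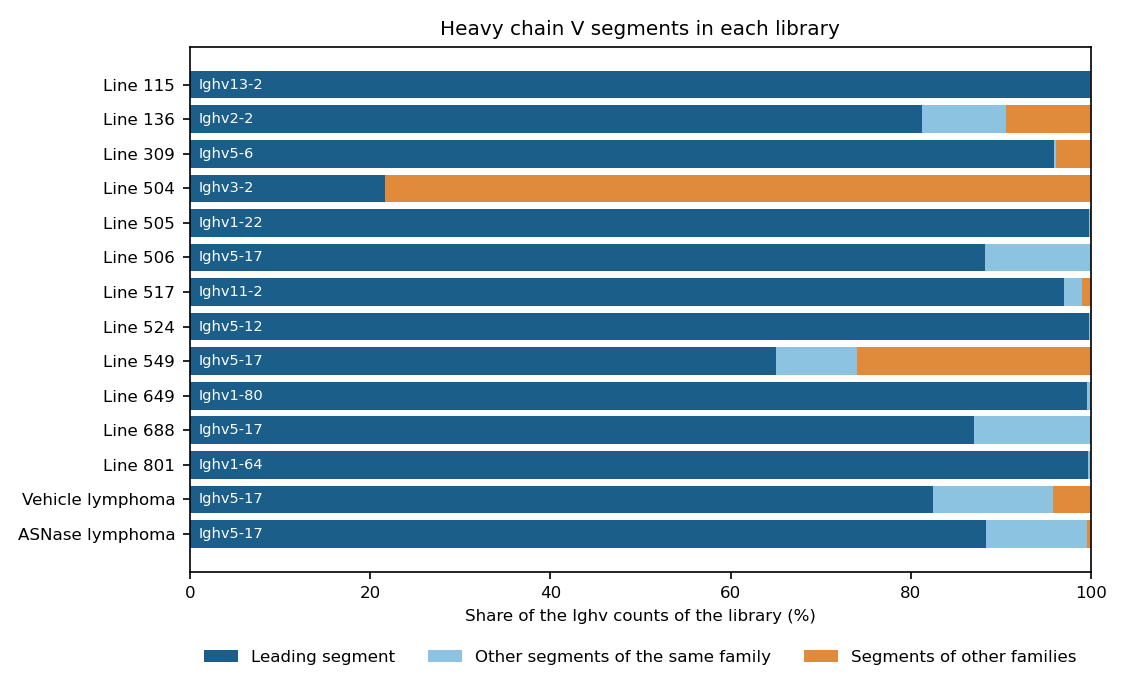
Share of Ighv counts (%) in each of the 14 libraries, split into the leading segment (named in the bar), other segments of its family and segments of other families. The leading share is 65.0% or more in 13 libraries and 21.6% in line 504.

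The relatives of Ighv2-2 had a similar proportion of its counts in 3 lines. Ighv2-4 had 9.82% of the counts of Ighv2-2 in line 136 (9.00 to 10.7), 11.8% in line 309 (44 of 373 counts) and 10.1% in line 504 (20 of 198 counts). These intervals overlap, although the level of Ighv2-2 differed from 198 to 5895 counts. Ighv2-5 had 1.66%, 2.95% and 1.52%. Of 18 cases in which a segment other than the leader was detected in a line other than 504, 11 were in the leader's family and 7 were in another.

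**Figure D2:**
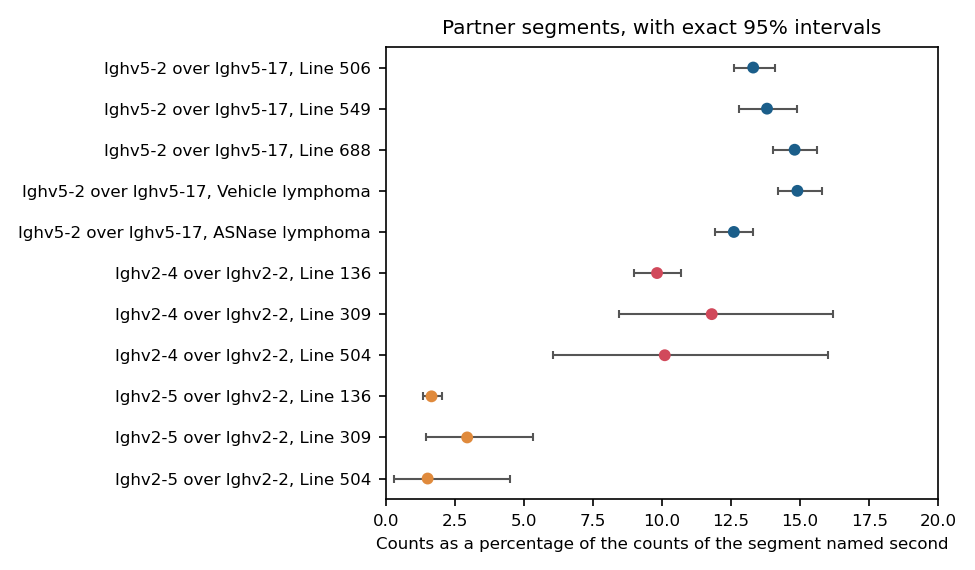
Counts of a segment as a percentage of the counts of its partner, with exact binomial 95% intervals, for Ighv5-2 over Ighv5-17 (5 libraries) and for Ighv2-4 and Ighv2-5 over Ighv2-2 (3 lines). Ighv5-2 lies between 12.6% and 14.9% and Ighv2-4 between 9.82% and 11.8%.

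Ighv5-17 was high in lines 506, 549 and 688 and in both lymphomas. It had 11087 counts in line 506, 5431 in line 549, 10052 in line 688, 10329 with vehicle and 11740 with ASNase in the lymphomas. Counts in the other lines were 1 in lines 115 and 136, 0 in lines 309, 505 and 517, 3 in line 504, 2 in line 524, 5 in line 649 and 4 in line 801. The 2 sets of libraries were formed by this segment itself, so their separation is a description. All 9 other lines were under 10 counts. In CPM the level was 376 in line 506, 207 in line 549 and 389 in line 688, and 333 and 392 in the vehicle and ASNase lymphomas.

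Ighv5-2, also called VH81X and known for frequent use in early B cell development, was detected in the same 5 libraries. It had 1480 counts in line 506, 752 in line 549, 1483 in line 688, 1543 in the vehicle lymphoma, 1481 in the ASNase lymphoma, and 0 to 4 in each other line. It lies 6 kb from the D-proximal end and Ighv5-17 at 286 kb. As a percentage of Ighv5-17, Ighv5-2 was 13.3% in line 506 (12.6 to 14.1), 13.8% in line 549 (12.8 to 14.9), 14.8% in line 688 (14.0 to 15.6), 14.9% with vehicle (14.2 to 15.8) and 12.6% with ASNase (11.9 to 13.3). The intervals of the 3 lines overlap one another, and those of the 2 lymphomas do not. None of the 11 relatives closer to Ighv5-17 in sequence had more than 1 count in line 506, 549 or 688.

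Other parts of the antigen receptor were compared in the 3 lines. Ighj4 had the most counts among the J segments in each, with 372, 299 and 392 counts in lines 506, 549 and 688, and it also led lines 504, 505, 517 and 524. No D segment had a count in line 506, line 688 or either lymphoma, and 4 D counts were seen in line 549. Lines 504 and 115 were alike in this, with 0 and 1 D counts. In the 7 remaining lines 15 or more D counts were seen, such as Ighd2-4 with 258 counts in line 524, Ighd1-1 with 100 in line 649 and Ighd4-1 with 92 in line 136. The kappa light chain segment Igkv9-120 made up 93.3% of Igkv counts in line 506, 51.5% in line 549, 98.2% in line 688, and 89.6% and 91.6% in the vehicle and ASNase lymphomas. It also led line 649 (54.8%), whose heavy chain segment was Ighv1-80.

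Line 549 held a second set of segments. Ighv13-2 had 2144 counts there, 25.7% of its Ighv counts, and it is 71.4% identical to Ighv5-17 with no shared stretch of 75 bases. The kappa segments Igkv5-39 and Igkv5-43 had 10661 and 2628 counts in line 549, 3508 and 1107 in line 136, and 199 and 2007 in line 115. Ighv13-2 was detected in these 3 lines. The kappa segments were not limited to them, with 3 and 737 counts in line 309 and 226 and 164 in line 801, where Ighv13-2 had no count. Igkv12-44, which led line 115 with 18501 counts, had 5 counts in line 549. By rho over variable genes, line 115 came next after lines 506 and 688 in likeness to line 549, at 0.62.

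Across the 12 lines the genes whose log2 CPM was most like that of Ighv5-17, of 14666 ranked, were Mtus2 (Pearson's r 0.996), Ighv5-2 (0.989) and Gm36980 (0.971). This describes a contrast of 3 like lines with 9 others. Mtus2, which encodes a microtubule-associated protein, had 256, 155 and 268 counts in lines 506, 549 and 688, 412 and 420 in the vehicle and ASNase lymphomas, and 0 or 1 in every other line.

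**Figure D3:**
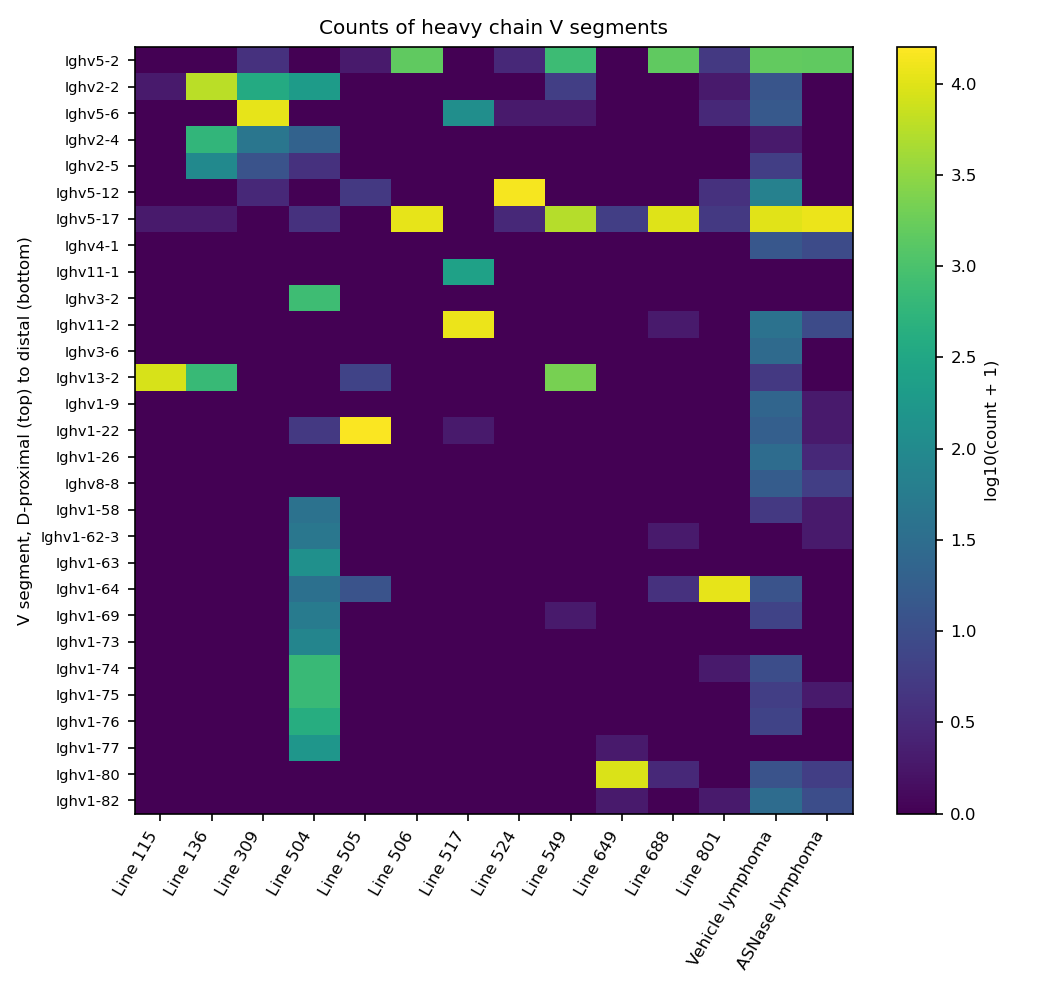
Counts, as log10(count + 1), of every V segment with at least 1% of the Ighv counts of a line and of the 8 segments highest in the lymphomas after Ighv5-17 and Ighv5-2, ordered from the D-proximal end. Ighv5-17 and Ighv5-2 are high in lines 506, 549 and 688 and both lymphomas, and line 504 has counts over many distal segments.

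Leading segments lay from near the D-proximal end to near the distal end of the array, most of them within the first 475 kb. In kb from the D-proximal end they were Ighv2-2 at 15, Ighv5-6 at 53, Ighv5-12 at 129, Ighv5-17 at 286, Ighv3-2 at 461, Ighv11-2 at 475, Ighv13-2 at 785, Ighv1-22 at 1173, Ighv1-64 at 1935 and Ighv1-80 at 2339. Divided into 4 parts of equal length, the array holds 53, 53, 43 and 34 segments, and the part from 1232 to 1814 kb held no leader. The segments next to a leader on the chromosome were almost silent, as were most segments of the array. Over the 12 lines the counts of these neighbours were 0 in all but 2 cases. The exceptions were 1 count of Ighv14-3 beside Ighv11-2 in line 517 and 1 count of Ighv5-18 beside Ighv5-17 in line 549. Each line had a count in only 3 to 46 of the 183 segments (median 9), so the silence is not particular to neighbours of a leader.

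Line 504 had no dominant segment. Its Ighv total was the lowest of all libraries, 3577 counts or 123 CPM, against 243 to 508 CPM in the 11 other lines. Its Ighm level, the constant region of the mu heavy chain, was also lowest, at 772 CPM against 2064 to 3744. Ighv counts per 100 Ighm counts were 16.0, within the 10.5 to 17.4 of the other lines. In line 504, 22 segments were detected, against 1 to 6 in each other line. The number of equally used segments that would give the same diversity (the inverse of the sum of squared shares) was 7.03, against 1.00 to 2.01.

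The segment with the most counts in line 504 was Ighv3-2, a pseudogene, with 774 counts. It had no count in any of the 13 other libraries, and neither did its neighbours Ighv4-2 and Ighv11-2 in line 504. Pseudogenes held 24.5% of the Ighv counts of line 504, and at most 0.0901% in each other library. Distal family 1 segments followed: Ighv1-74 had 693 counts, Ighv1-75 had 689, Ighv1-76 had 406 and Ighv1-77 had 162. Ighv1-63 had 128 counts, and the D-proximal Ighv2-2 had 198.

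These counts formed a block on the chromosome. The 11 segments from Ighv1-72 to Ighv1-78 span 111 kb, and 9 of them had a count in line 504. Together they held 2089 counts, 58.4% of the Ighv counts of line 504, against 2 counts in all 11 other lines. Beyond this block, toward the distal end, 8 segments had 28 counts, all from Ighv1-84. The part of the array from 1873 to 2437 kb held 68.0% of the Ighv counts of line 504, the D-proximal part 28.2%, and the part from 624 to 1215 kb 0.112%.

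Dntt, Vpreb1 and Igll1 were far higher in line 504 than in any other line. Dntt, which encodes the terminal transferase that adds bases at the joints, had 29146 counts in line 504 and 0 to 36 in each other line. Vpreb1 and Igll1, which encode the surrogate light chain of B cell progenitors, had 8639 and 12326 counts, against at most 567 and 2024. Rag1, which encodes part of the recombinase, had 3522 counts, within the 0 to 4224 of the other lines. Rag2 had 968 counts, against 0 to 908 in the other lines. Kappa segments had 22 counts in line 504 against at least 11348 in each other line, and no D segment had a count. Whether these levels and the spread of V segments are related was not tested.

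**Figure D4:**
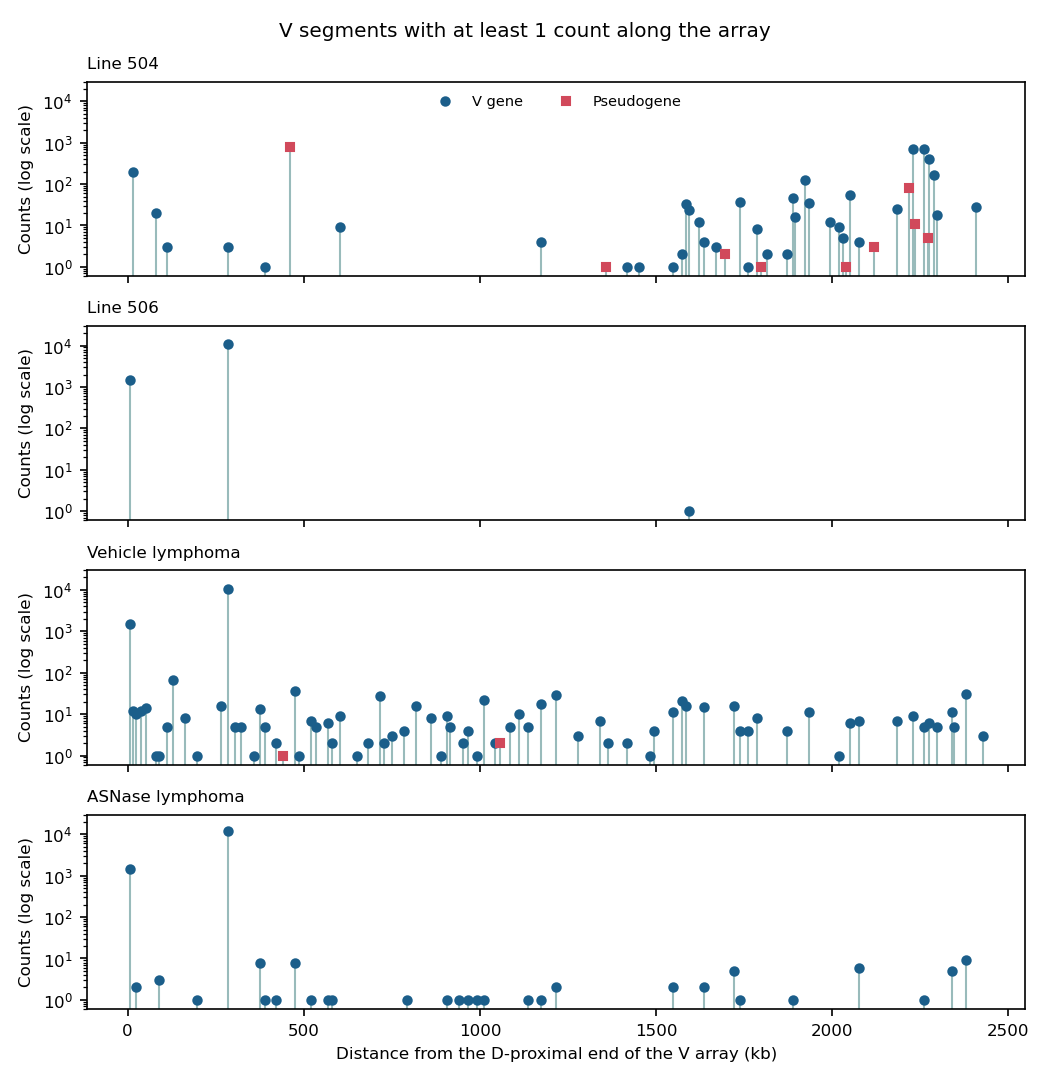
Counts (log scale) of every V segment with at least 1 count by its distance in kb from the D-proximal end, in line 504, line 506 and the 2 lymphomas, with pseudogenes as squares. Line 504 has a block from Ighv1-72 at 2185 kb to Ighv1-78 at 2296 kb, line 506 has 3 segments, and the vehicle lymphoma has low counts along the whole array.

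Both lymphomas had the pair seen in their line of origin. Ighv5-17 was 1.18 times as high in the ASNase as in the vehicle lymphoma by CPM (exact interval 1.15 to 1.21, counting error only), and Ighv5-2 was 0.996 times as high (0.927 to 1.07). With 1 library per treatment there is no replicate check of any difference between treatments. Ighv5-17 held 82.5% of Ighv counts in the vehicle lymphoma (81.8 to 83.2), 88.3% in the ASNase lymphoma (87.8 to 88.9) and 88.2% in cultured line 506 (87.6 to 88.8).

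Many other segments appeared at low level in the lymphomas, above all with vehicle. Apart from Ighv5-17 and Ighv5-2, the vehicle lymphoma had 649 Ighv counts over 75 segments, the ASNase lymphoma 69 counts over 28 segments, line 688 14 counts over 7, and line 506 1 count. That was 5.18% of the Ighv counts of the vehicle lymphoma, 0.519% of the ASNase lymphoma, 0.121% of line 688 and 0.00796% of line 506. In CPM the remainder was 20.9 with vehicle and 2.31 with ASNase, a ratio of 0.110 (0.0848 to 0.142). The vehicle level was thus 9.07-fold higher (7.07 to 11.8, counting error only).

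The vehicle remainder was diverse. It included 14 families and 22 detected segments, and its most abundant member, Ighv5-12, held 10.5% of it. Its diversity equalled that of 31.5 equally used segments, against 14.1 with ASNase. These 2 values rest on 649 and 69 counts and were not brought to equal depth, so they cannot be compared directly. At the ASNase number of counts, 36.4 of the vehicle segments would be seen on average, and 28 were seen with ASNase. The 25 segments seen in both were 33.3% of those with vehicle and 89.3% of those with ASNase. Pseudogenes had 3 counts in the vehicle remainder and 0 in the ASNase remainder.

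Of the 75 vehicle segments, 35 had no count in any line. Among the 22 detected with vehicle, 7 had none in any line, so most of the 35 rest on fewer than 10 counts. The share of all genes seen with vehicle but in no line is not given here, so these counts are a description. Ighv1-26 had 29 counts with vehicle, 2 with ASNase and 0 in every line. Set against 3 counts over all 12 lines, that is 109-fold higher with vehicle, leaving out the counting error of the 29 counts. Ighv3-6 had 27 counts with vehicle and 0 in every other library, 102-fold higher than the lines in the same way. Both segments were named for being high in the lymphomas, so these folds are a description. Ighv1-9 had 22 and 1, Ighv8-8 had 16 and 5, and Ighv4-1 had 13 and 8 counts with vehicle and ASNase, with 0 in all lines. For Ighv4-1 the ASNase over vehicle ratio was 0.638 (0.229 to 1.66).

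Other members of the remainder lead lines of this series. Ighv5-12, which led line 524, had 68 counts with vehicle and 0 with ASNase. Ighv11-2, which led line 517, had 37 and 8. The 9 segments that lead lines other than 506, 549 and 688 held 175 counts, 27.0% of the vehicle remainder, and 14 counts, 20.3% of the ASNase remainder. Carry-over between libraries as a source of these counts was not tested.

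Families and position were spread in both remainders. Family 1, the largest with 92 members, held 46.1% of the vehicle remainder and 40.6% of the ASNase remainder. Family 5 held 18.0% and 7.25%, and family 8 held 4.31% and 15.9%. The 4 equal parts of the array, from the D-proximal end, held 38.1%, 27.4%, 17.6% and 16.9% with vehicle, and 39.1%, 14.5%, 14.5% and 31.9% of 69 counts with ASNase.

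**Figure D5:**
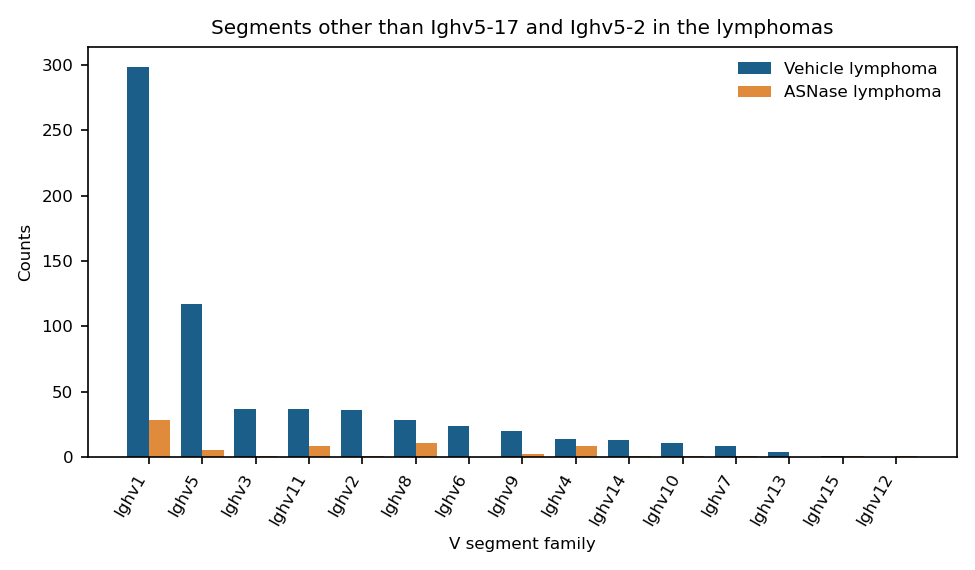
Counts of segments other than Ighv5-17 and Ighv5-2 by family in the vehicle and ASNase lymphomas, 1 library each. Family 1 has 299 counts with vehicle and 28 with ASNase, and family 5 has 117 and 5.

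By size alone, 24 Ighv segments had at least 10 counts in either lymphoma. Of these 20 were at least 2-fold lower with ASNase and 0 were at least 2-fold higher. Over all 16123 genes with such counts, 5.38% were 2-fold lower and 4.99% were 2-fold higher. The median log2 ratio of the 24 segments was -2.23, beside -0.05 for all genes. Segments were admitted mostly through the vehicle library, where they are high, so this count is a description.

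Constant regions and markers of other lymphocytes were also higher with vehicle. Ighd, the delta constant region of naive B cells, had 6194 counts with vehicle, 2272 with ASNase and 242 in line 506. Cultured lines had it too, with 3249 counts in line 309 and 1801 in line 524. In CPM line 309, at 134, was above the ASNase lymphoma at 75.9 and below the vehicle lymphoma at 199. The switched isotypes Ighg2c, Ighg2b and Igha had 639, 147 and 73 counts with vehicle and 16, 5 and 22 with ASNase, and 0 in line 506. Fcer2a, the low-affinity IgE receptor of mature B cells, had 307 and 5 counts, and Jchain, which links secreted IgM and IgA, had 186 and 25. Line 524 also had switched isotypes, with 287 counts of Ighg2b.

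As lists, 8 of 8 mature B cell markers were higher with vehicle than with ASNase, with summed levels of 906 and 598 CPM against 294 to 1042 in the lines. All 10 T cell markers were higher with vehicle, at 79.5 CPM against 17.1, and 0.725 to 41.1 in the lines, where 3 of the 10 had no count in any line. The 6 pan-B markers summed to 2884 and 2220 CPM against 1873 to 2772, with 4 of 6 higher with vehicle. The 8 plasma cell markers summed to 632 and 533 against 337 to 1278, with 5 of 8 higher. The 6 genes listed for V(D)J recombination, with Vpreb1 and Igll1 among them, summed to 206 and 150 CPM against 16.0 to 2222, with 3 of 6 higher. The share of all genes that were higher with vehicle is not given here, so these tallies are a description from 1 library per treatment. The median log2 ratio of ASNase over vehicle for all genes was -0.05. No pan-B, mature B, plasma or T cell marker was at 0 in either lymphoma. The part of host lymphocytes in the V segment remainder was not tested, and in bulk RNA more cells of a type and more RNA per cell cannot be told apart.

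Across all genes, the lymphomas were compared with the lines by edgeR's quasi-likelihood test, with Benjamini-Hochberg adjustment over 17450 genes. Of these 24.5% passed 0.05, 13.4% higher and 11.1% lower in the lymphomas. The filter on low counts passed 41 of the 183 Ighv segments, and 1 of these, or 2.44%, was called. Ighv1-82 was higher in the lymphomas, with 30 counts with vehicle and 9 with ASNase against 1 count each in lines 649 and 801 and 0 in the others. Its log2 fold change was 5.79 (SE 0.80), with an adjusted p of 0.000262. The ratio to the 12 lines by counts was 169 with vehicle (43.0 to 1460) and 52.7 with ASNase (10.9 to 501).

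At an unadjusted p under 0.05 there were 6 segments, Ighv1-82 with Ighv4-1, Ighv8-8, Ighv1-55, Ighv1-26 and Ighv1-9, of 41 tested, beside 37.0% of all genes tested. Ighv4-1, Ighv8-8, Ighv1-26 and Ighv1-9 had no count in any line, Ighv1-82 had 2 over all lines and Ighv1-55 had 5. All 6 therefore passed the filter only through the lymphomas, and their direction was fixed by it. Ighv5-17 was not called (log2 fold change 2.16, SE 2.66, adjusted p = 0.609 by edgeR), nor was Ighv5-2 (2.12, SE 2.48, adjusted p = 0.585). Both are high in 3 of the 12 lines and near 0 in the others. The median log2 fold change of the 41 segments was -3.65 beside -0.01 for all genes tested. Ighv3-2, Ighv11-1 and Ighv5-15 had counts only in lines 504, 517 and 524, respectively. Segments of this kind passed the filter through the line where they are high, which also fixed their direction, so this median is a description. Among the companion genes, edgeR called Igha higher (adjusted p = 8.43e-06) and Ighj4 higher (adjusted p = 0.0268) in the lymphomas, and Rag1 lower (adjusted p = 0.0441). Igha had 1 count in line 524 and 0 in each other line, so it too passed the filter only through the lymphomas, which fixed its direction. The call of Ighv1-82 was lost with DESeq2 (adjusted p = 0.147). Without the vehicle library the segment did not pass the filter.

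Numbers of detected segments did not separate the groups. The vehicle lymphoma had 24 and the ASNase lymphoma 2, a mean of 13.0, against 4.25 ± 5.74 (SD, n = 12) in the lines. The difference of 8.75 had p = 0.308 in a two-sided exact permutation test, whose smallest possible p is 0.022. Without line 504 the difference was 10.4 (exact p = 0.282), and without lines 549 and 688 it was 8.40 (exact p = 0.364). Without the vehicle library it turned to -2.25.

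The summed level of all segments but the leader was 70.6 CPM with vehicle and 51.8 CPM with ASNase. It was 0.457 to 111 CPM in the lines, with a median of 15.4, and the lymphomas lay inside this range. The difference on the log2(CPM + 0.1) scale was 2.72 (exact permutation p = 0.286, two-sided). It was 3.03 without line 504 (exact p = 0.179) and 3.35 without lines 549 and 688 (exact p = 0.152). Between the treatments the ratio was 0.734 (0.687 to 0.783), most of both sums being Ighv5-2.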

How the data were processed

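The authors deposited 1 table of raw counts per gene for 14 libraries, not normalized. Per the labels' protocols, libraries came from a stranded mRNA kit and paired ends of 75 bases. Per the submitters' processing notes, reads were handled with STAR 2.4.0 and Subread 1.5.0-p3 (featureCounts), with mm10 (GRCm38) as the build. The strand setting is not given in the sources used here. Sample titles identified each column, 0 columns were left over, and 100 spike-in and phage entries were left out.

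Counts were scaled by TMM in edgeR 4.0.16 (R 4.3.3), filtered by filterByExpr and tested with glmQLFit and glmQLFTest over 3 groups (11 residual degrees of freedom, all from the lines), with DESeq2 1.42.0 as an alternative. Exact intervals and permutation tests used scipy 1.17.1, and figures matplotlib 3.10.9, in Python 3.11.15. The gene tests were checked on simulated counts with known changes. The simulated lines shared a mean and spread for each gene. This check therefore does not cover segments that are high in few lines and nearly absent in the others.

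Named segments were the leader of each library, those with at least 1% of a line's Ighv counts, the 8 highest in the lymphomas after Ighv5-17 and Ighv5-2, neighbours of leaders, and fixed companion genes and marker lists. Others were named after their values were seen. The members and lists were chosen with earlier results of these data known. Labels say that lines came from separate mice. V regions were taken from GENCODE M21 without the first 11 bases of the V exon, the end of the leader.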

Additional observations from a re-analysis of the deposited data

How the results depend on the processing

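Ighv1-82 was the 1 segment called by edgeR with TMM, with total counts, without line 506, without lines 549 and 688 and with library sizes without immunoglobulin segments. DESeq2 tested 14 segments and called 2, Ighv13-2 and Ighv2-2, both lower in the lymphomas (26.1% of all genes called). These segments led lines 115 and 136 and had 4 and 12 counts with vehicle and 0 with ASNase. The lines where they are high fixed their direction, and edgeR called neither (adjusted p = 0.303 and 0.34). With no filter 7 were called, all higher (16.2% of all genes). None of these 7 had more than 4 counts in a line, so their direction was fixed as well. Without line 504 there were 2 calls, Ighv1-55 and Ighv1-82 (27.7% of all genes). Leaving out a lymphoma gave 0 (vehicle left out, also 0 at an unadjusted p under 0.05, with 11.8% of all genes called by edgeR) to 3 calls (ASNase left out: Ighv1-52, Ighv1-55 and Ighv1-82, with 10.7% of all genes). The cause was not tested. With a lymphoma left out, the difference in detected segments was -2.25 (without vehicle) to 19.8 (without ASNase), and the log2 difference in minor segments 2.50 to 2.95; 1 library against 12 cannot give an exact p below 0.154. With both lymphomas, the difference in detected segments was 26.4 at a minimum of 3 counts (exact p = 0.0659), 0.50 at 30 counts (exact p = 0.527), 4.33 at 0.5 CPM and 6.67 without the leader's family. The log2 difference in minor segments was 1.63 without the leader's family, 1.96 without the 2 leading segments and up to 3.35 without lines 549 and 688. No exact p was under 0.05.

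Without the leader's relatives the leading share was 89.6% in line 136, 99.9% in lines 505, 649, 688 and 801, 100.0% in lines 506 and 524, 99.0% in line 517, 71.5% in line 549, 95.1% with vehicle and 99.5% with ASNase. Per base of length, a setting chosen after seeing the data like those without lines 504, 549 and 688, it was 86.7% in line 506, 96.1% in line 517, 62.1% in line 549, 85.4% in line 688, 80.6% with vehicle and 86.9% with ASNase. The ASNase over vehicle ratio of minor segments was 0.110 without the 2 leading segments and 0.125 without family 5. Total counts in place of TMM moved the median log2 fold change of all genes by 0.222, and the split over all genes tested was then 16.9% higher and 5.40% lower. No paired analysis was possible because each lymphoma is 1 library and line numbers are mouse numbers. Segments under 3 counts in a library cannot be told from absent ones at this depth.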
